A study of Mus musculus with 4 samples.

Results

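The genes described here are the 36 cytosolic and mitochondrial aminoacyl-tRNA synthetases that were listed by symbol in the deposited expression values of mouse septal tissue. They were chosen by name, 20 as cytosolic and 16 as mitochondrial, from 15409 gene rows, and each had a single row. In the cytosolic set, Gars and Kars also make the mitochondrial form of their enzyme. The 16 mitochondrial genes are those with symbols ending in 2.

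Aminoacyl-tRNA synthetases join each amino acid to its own tRNA, the step that sets the meaning of the genetic code. The cytosolic enzymes charge tRNAs for nuclear-encoded mRNAs, and the mitochondrial enzymes, nearly all products of separate nuclear genes, charge the tRNAs encoded in the mitochondrial genome. Several cytosolic enzymes sit together in the multi-synthetase complex, which is held by the scaffold proteins Aimp1, Aimp2 and Eef1e1. Inherited variants in many of these genes are known for disease of the nervous system, such as neuropathy for Gars and leukoencephalopathy for several mitochondrial enzymes.

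RNA sequencing was done on brain septal tissue of wild-type (WT) mice and of TCRb-/- mice, which lack the T cell receptor beta chain. There were 4 libraries, with 1 of each genotype in experiment 1 (replicate 1) and 1 of each genotype in experiment 2 (replicate 2). Each library came from a pool of 4 to 5 mice, so a replicate is a pool and not an animal. Mice of both genotypes were restrained for 30 min on 3 days and killed 1.5 h after the last restraint, so no unstressed group enters any comparison. Neither strain background nor age is given in the labels, and sex is not either. RNA was taken from the cleared supernatant of a homogenate with detergent, not from whole tissue. In bulk tissue, fewer cells of a type and less RNA per cell cannot be told apart.

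Library totals were 24585868 (TCRb-/- replicate 1), 19988137 (TCRb-/- replicate 2), 26210790 (WT replicate 1) and 22358674 reads (WT replicate 2). Trbc2, a constant segment of the deleted receptor chain, had 0 reads in both TCRb-/- libraries, and 169 and 86 reads in the WT libraries. Markers of neighbouring regions differed between the pools. TCRb-/- replicate 2 had the lowest level of 9 of the 9 striatal markers listed, summed to 935 CPM (counts per 1000000 reads of the library) against 2335 to 4296 CPM in the other libraries. All 9 striatal markers were also lower in both libraries of experiment 2 than in both of experiment 1. All 6 markers of cortex and hippocampus were lower there too, at 40.7 and 41.9 CPM summed against 207 and 261 CPM. All 10 choroid plexus markers were higher in experiment 2, at 4154 and 6838 CPM summed against 1296 and 2122 CPM in experiment 1. The summed pan-neuronal markers lay between 5583 and 6132 CPM and the septal markers between 336 and 389 CPM, with 7 of 8 septal markers listed.

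All 36 synthetases passed the filter of a mean of 1 CPM, and together they took 0.289% to 0.324% of the reads in each library. The fewest reads behind any member's value were 146, for Wars2 in WT replicate 2, which is 6.53 CPM with an exact 95% interval of 5.51 to 7.68 for counting error only. The cytosolic enzymes summed to 2136 and 2488 CPM in TCRb-/- replicates 1 and 2, and to 2304 and 2371 CPM in WT replicates 1 and 2. The mitochondrial enzymes summed to 752 and 756 CPM in TCRb-/- and to 790 and 767 CPM in WT. The libraries of the genotypes overlapped for the cytosolic sum, while both TCRb-/- sums were below both WT sums for the mitochondrial set. Without Lars2, which gave nearly the same number of reads as the other mitochondrial enzymes together, the mitochondrial sums were 401 and 393 CPM in TCRb-/- and 381 and 382 CPM in WT, and the order of the genotypes was turned.

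Levels of different genes were compared per length, as CPM per kilobase of the longest protein-coding transcript. The median cytosolic enzyme was at 33.5 ± 2.30 CPM per kb (SD, n = 4) and the median mitochondrial enzyme at 9.00 ± 0.493 (SD, n = 4), beside a median of 7.60 over all genes tested. The ratio of these medians was 3.15 and 4.03 in TCRb-/- replicates 1 and 2, and 3.65 and 4.12 in WT replicates 1 and 2. The cytosolic median was the higher in every library, and the ratio was higher in experiment 2 than in experiment 1 within each genotype. On the log2 scale the difference was 1.89 ± 0.18 (SD, n = 4).

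The cytosolic enzymes spanned a wide range. Nars, the asparagine enzyme on chromosome 18 (GRCm38, 64499647 to 64516652), was the highest at 119.4 ± 11.2 CPM per kb (SD, n = 4). Nars was above 95.4% of the 15292 gene rows with a length, tested or not. It was followed by Hars for histidine at 94.6 ± 8.06 and Gars for glycine at 83.4 ± 9.51. The SDs of Hars and Gars overlapped, although Hars was above Gars within each of the 4 libraries. The lowest cytosolic enzymes were Vars for valine at 9.54 ± 1.00, Tars for threonine at 9.04 ± 0.579 and Lars for leucine at 7.23 ± 0.555 CPM per kb. Vars and Tars did not differ beyond their spread.

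Lars2, the mitochondrial leucine enzyme on chromosome 9 (123366927 to 123462666), stood apart from its group at 96.8 ± 6.59 CPM per kb (SD, n = 4), above 94.2% of the same 15292 gene rows. Matches to other genes over 5% or less of a transcript were not kept, so reads shared over a short stretch may be in this level. Next came Rars2 for arginine at 21.7 ± 1.06 and Fars2 for phenylalanine at 19.1 ± 1.82. The lowest were Vars2 at 2.96 ± 0.362, Wars2 for tryptophan at 1.76 ± 0.219 and Mars2 for methionine at 1.15 ± 0.228 CPM per kb. The Mars2 value is divided by a transcript of 11294 bases, against a median of 3282 for the mitochondrial set, and its place at the bottom depends on that length. The coefficient of variation over the libraries ran from 2.93% for Nars2 to 19.9% for Mars2.

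**Figure D1:**
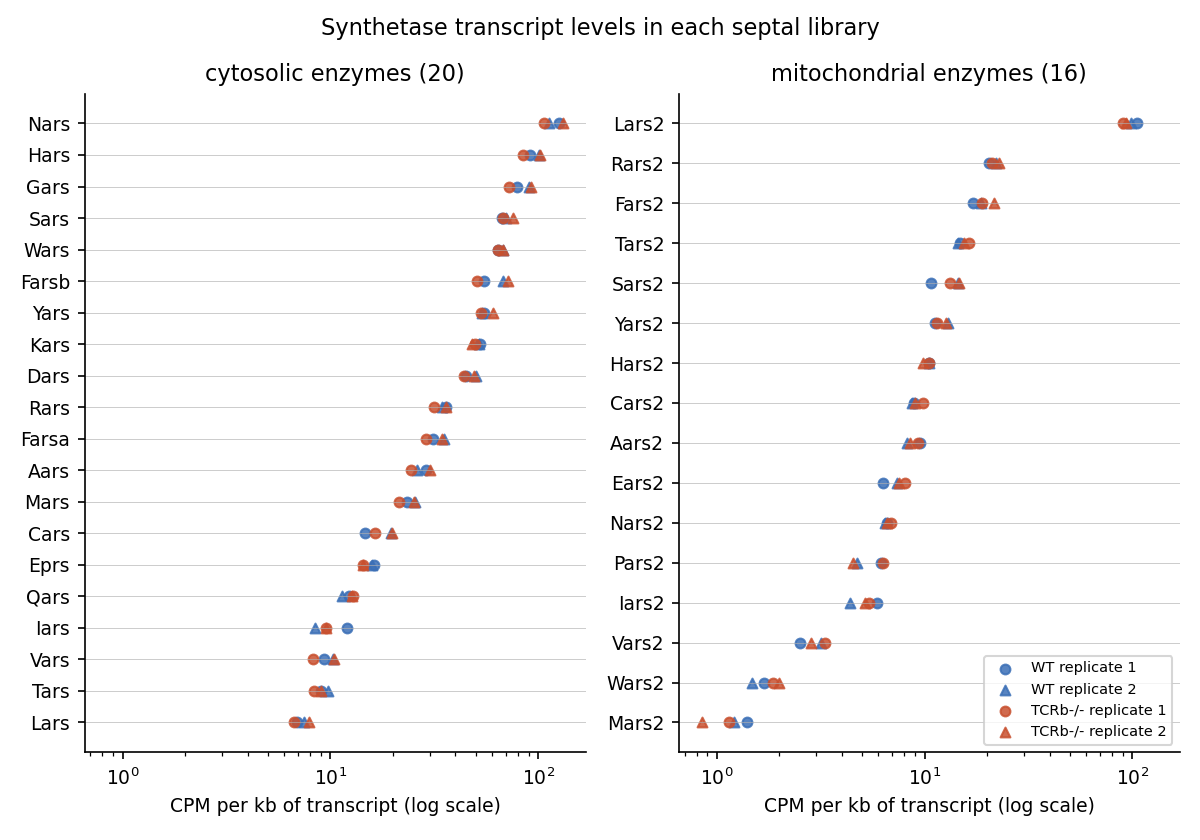
Level of each synthetase in CPM per kilobase of transcript (log axis), with cytosolic enzymes on the left, mitochondrial enzymes on the right and a point for each of the 4 libraries (colour for genotype, shape for replicate). Lars2 lies among the highest cytosolic enzymes at 96.8 CPM per kb, while the median mitochondrial enzyme was at 9.00.

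For 17 pairs of a cytosolic and a mitochondrial gene that serve the same amino acid, the cytosolic to mitochondrial ratio per kb was above 1 in every library for 15 pairs. It was highest for tryptophan, where Wars to Wars2 was 34.3 and 34.1 in TCRb-/- replicates 1 and 2, and 37.8 and 45.5 in WT replicates 1 and 2. Both TCRb-/- libraries lay below both WT libraries for this pair. Mars to Mars2 had ratios of 18.7 and 29.9 in TCRb-/-, and of 16.7 and 21.0 in WT, with both libraries of experiment 2 above both of experiment 1. The size of this ratio depends on transcript lengths of 2962 bases for Mars and 11294 for Mars2.

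Threonine and leucine were the pairs with more reads per kb for the mitochondrial gene. Tars to Tars2 was 0.510 and 0.580 in TCRb-/- and 0.609 and 0.672 in WT. Lars to Lars2 was 0.0740 and 0.0844 in TCRb-/- and 0.0656 and 0.0757 in WT. Reads that Lars2 may share with other genes over a short stretch were not examined and would lower this ratio. Over all 17 pairs the ratio was higher in both libraries of experiment 2 than in both of experiment 1 for 7 pairs and lower for 0. The ratio was below WT in both TCRb-/- libraries for 5 pairs and above for 0. Among single genes, the levels did not overlap between experiments for 67.3% of all genes and between genotypes for 17.8%. No such share was taken over other pairs of genes. Pairs that share Eprs, Fars2 or a library are not independent, and the counts of pairs were not tested.

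**Figure D2:**
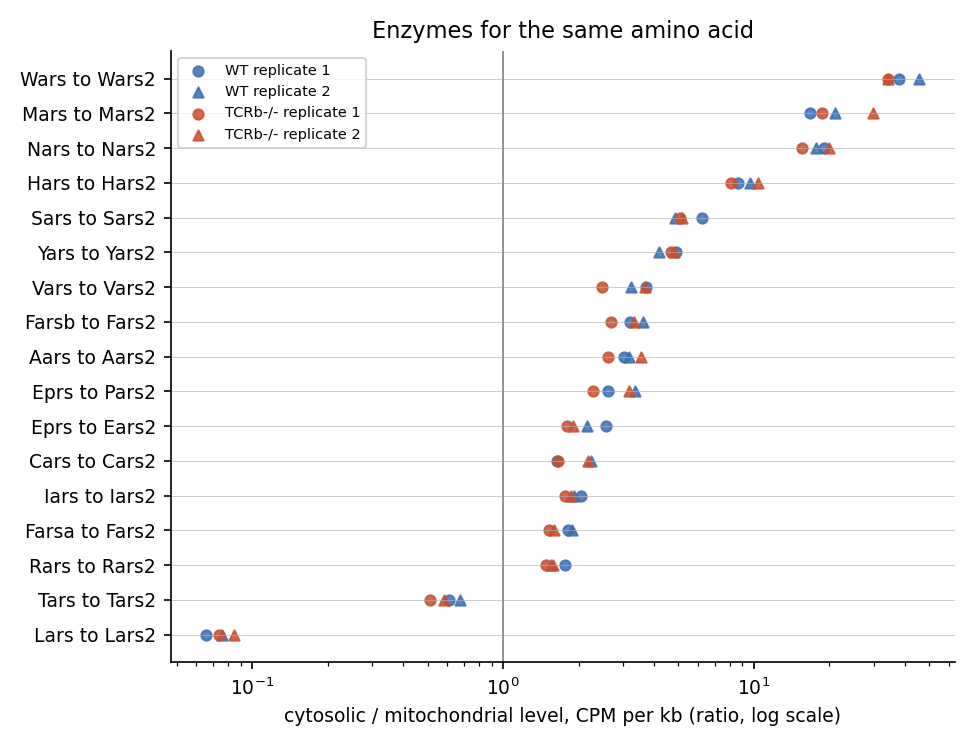
Ratio of the cytosolic to the mitochondrial enzyme for the same amino acid, in CPM per kb (log axis), for 17 pairs, with a point for each library. The tryptophan pair has a mean ratio of 37.9 and the leucine pair of 0.0749, and the leucine and threonine pairs lie below 1 in every library.

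Reads of 9 members could be shared with another gene, because at least 75 bases and over 5% of the transcript matched that gene at 90% identity or more. The longest matches were those of Iars2 with Rab3gap2 on the opposite strand (2034 bases, 37.2% of the Iars2 transcript), of Iars with the processed pseudogene Gm4849 (1656 bases, 37.4%, at 96.0% identity) and of Aars with Exosc6 (1326 bases, 23.1%). Farsb overlapped Sgpp2 on the opposite strand over 250 bases, 12.3% of its transcript. Hars and Hars2 lie head to head and shared 195 bases. The other members in this position were Cars2, Fars2 and Nars2, and the values of all 9 are uncertain to that extent. Lars2 was not among these 9, but shorter matches were not kept, so sharing over a smaller part of a transcript was not examined. The matches of Aars and Iars lie on the same strand as the other gene, and for the others the strand setting of the counting is not stated in the labels.

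The first question was which synthetases differed between the experiments, which the labels give as the batch. In limma with Benjamini-Hochberg adjustment, 4 of 36 synthetases passed an adjusted p of 0.05, 11.1%, against 23.7% of the 13912 genes tested. The cytosolic genes Farsb, Cars and Gars rose in experiment 2 and the mitochondrial gene Pars2 fell. By direction, 3 of 20 cytosolic enzymes rose (15%) against 8.95% of all genes, and 1 of 16 mitochondrial enzymes fell (6.25%) against 14.7% of all genes. Unadjusted p values under 0.05 were found for 9 of 36 synthetases against 39.2% of all genes. With the genotype kept in the fit through the replicate block, the same 4 genes passed, against 24.7% of all genes. Of all genes called, 1245 of 3292 were higher (37.8%), and after quantile normalization 1634 of 3227 were (50.6%). Where limma's prior variance was given no intensity trend, 629 genes passed and 0 of 36 synthetases did, so all 4 calls rest on that trend. The labels do not say what set the experiments apart, so animals, dissection and library making cannot be told apart here.

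Farsb, the beta subunit of the cytosolic phenylalanine enzyme (chromosome 1, 78417975 to 78488897, minus strand), had 102.9 CPM in TCRb-/- replicate 1 and 111.6 CPM in WT replicate 1. In experiment 2 it had 146.1 CPM in TCRb-/- and 138.0 CPM in WT, so the experiments did not overlap. The log2 difference was 0.40 (SE 0.072, limma adjusted p = 0.00995), a 1.32-fold higher level, and the call held on leaving out any single library. With no intensity trend the adjusted p in limma was 0.0593. Farsa, the alpha subunit of the same enzyme, was at 52.6 and 56.8 CPM in experiment 1 and at 62.9 and 64.4 CPM in experiment 2, with a difference of 0.22 that missed the threshold (limma adjusted p = 0.0760).

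Cars charges cysteine (chromosome 7, 143557230 to 143600090, minus strand). It had 52.8 CPM in TCRb-/- and 47.0 CPM in WT in experiment 1, and 63.6 and 62.9 CPM in experiment 2. The rise was 0.34 on the log2 scale (SE 0.083, limma adjusted p = 0.0247). Gars charges glycine in both compartments (chromosome 6, 55038007 to 55079500, plus strand). It had 171.4 and 188.5 CPM in TCRb-/- and WT of experiment 1, and 218.9 and 215.5 CPM in experiment 2. The rise was 0.27 (SE 0.069, limma adjusted p = 0.0288), and neither gene's experiments overlapped. The adjusted p of Cars was 0.0661 without TCRb-/- replicate 2 and 0.0985 without WT replicate 1, and that of Gars was 0.0992 and 0.0929 without TCRb-/- replicate 1 and 2. Without TCRb-/- replicate 2 the differences were 0.33 for Cars and 0.26 for Gars, near those with all libraries, and they were 0.26 for Cars without WT replicate 1 and 0.20 for Gars without TCRb-/- replicate 1.

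Pars2 charges proline in mitochondria (chromosome 4, 106651069 to 106655282, plus strand), while in the cytosol that task belongs to Eprs. Pars2 had 19.3 CPM in TCRb-/- and 18.8 CPM in WT in experiment 1, and 13.8 and 14.4 CPM in experiment 2. It fell by 0.41 on the log2 scale (SE 0.108, limma adjusted p = 0.0317), to 0.752 of its level in experiment 1. The adjusted p was 0.124, 0.105 and 0.0996 without TCRb-/- replicate 1, TCRb-/- replicate 2 and WT replicate 1, and 0.0731 after quantile normalization. Nearest to 0 were Eprs, at 70.6 and 79.3 CPM in experiment 1 and 70.2 and 77.7 CPM in experiment 2, and Lars2, at 351 and 409 CPM against 364 and 385 CPM. Their differences were -0.02 each, which turned to 0.01 under median-of-ratios scaling for both and under quantile normalization for Eprs only. Differences this small have no settled sign.

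**Figure D3:**
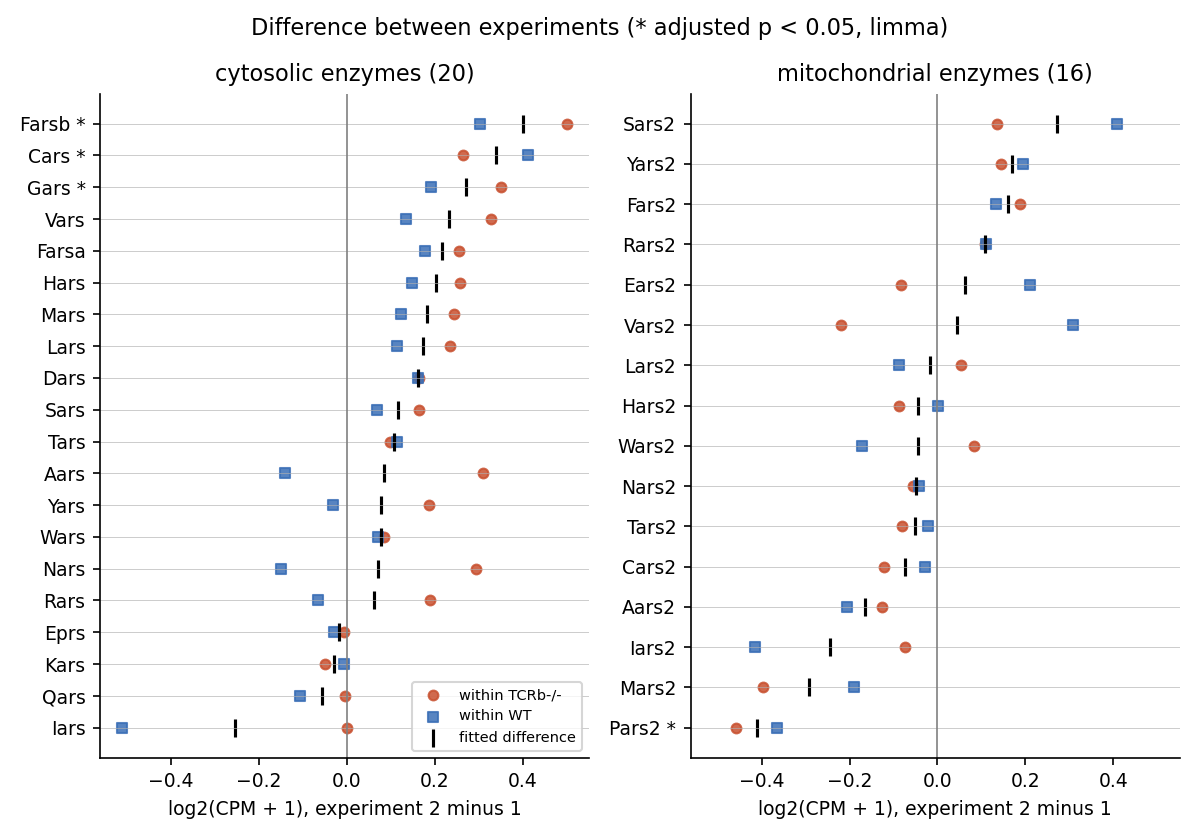
Log2 difference between experiment 2 and experiment 1 in log2(CPM + 1) for each synthetase, as a point within TCRb-/- and a point within WT (1 library against 1), with a bar at the fitted difference and a star at genes past the adjusted threshold in limma. Farsb (0.40), Cars (0.34) and Gars (0.27) have their bars above 0 and Pars2 (-0.41) below, and the bars of 16 of 20 cytosolic enzymes lie above 0.

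As a set the cytosolic enzymes sat above 0, with 16 fitted higher and 4 lower (Eprs, Kars, Qars and Iars) and a median log2 difference of 0.11, beside -0.03 over all genes, of which 46% were above 0. Both libraries of experiment 2 were above both of experiment 1 for 11 cytosolic enzymes and below for 0, against 30.1% of all genes above and 37.2% below. The mitochondrial enzymes had 6 higher and 10 lower, with a median of -0.04, which was 0.03 after quantile normalization and 0.01 without TCRb-/- replicate 1. Their libraries did not overlap for 3 upward (Rars2, Sars2 and Yars2) and 3 downward (Aars2, Iars2 and Pars2). Over both compartments 17 of 36 did not overlap, against 67.3% of all genes. The median absolute difference was 0.14 for cytosolic and 0.09 for mitochondrial enzymes, beside 0.20 for all genes, and no member passed 0.5 in size, against 12.5% of all genes.

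The medians kept their sign within each genotype, at 0.21 in TCRb-/- and 0.09 in WT for cytosolic enzymes and at -0.08 and -0.02 for mitochondrial ones, each from 1 library against 1. In both genotypes 12 cytosolic enzymes were higher and 3 lower in experiment 2, and 4 mitochondrial enzymes were higher and 7 lower, against 35.1% of all genes higher and 42.2% lower. Single genes did not always do so. Nars went from 293.8 to 360.7 CPM between the TCRb-/- libraries and from 345.6 to 311.2 CPM between the WT libraries. Aars, the alanine enzyme, went from 140.2 to 174.1 CPM and from 166.0 to 150.5 CPM in the same order. Iars, the isoleucine enzyme, was at 42.3 and 42.4 CPM in TCRb-/- and at 53.5 and 37.2 CPM in WT, so its WT replicate 1 was the high library. None of these 3 passed the test between experiments, with limma adjusted p values of 0.569 for Aars, 0.630 for Nars and 0.165 for Iars.

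The 3 calls among cytosolic enzymes fell in the 12 free-standing ones. All 12 were fitted higher, with a median of 0.16, against 46% of all genes fitted higher. The 3 calls were rises, 25% against 8.95% of all genes, and in either direction 23.7% of all genes were called. The 8 enzymes of the multi-synthetase complex had 0 calls, with 2 at an unadjusted limma p under 0.05, 4 fitted higher and 4 lower, and a median of 0.02. The difference between these groups was not tested. Of the complex scaffolds, Eef1e1 rose, from 78.0 and 83.6 CPM to 98.0 and 100.5 CPM (log2 difference 0.29, SE 0.070, limma adjusted p = 0.0230). Aimp1 and Aimp2 had differences of 0.21 and 0.25 that missed the threshold (limma adjusted p = 0.0849 and 0.0797). By catalytic class, class I cytosolic enzymes had 1 call of 10 and a median of 0.08, and class II had 2 of 10 and a median of 0.14. All of these were rises, 10% and 20% against 8.95% of all genes, and in either direction 23.7% of all genes were called. These counts were not tested.

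Transcript length moved with this comparison. Over 13823 genes the Spearman correlation of the difference with transcript length was -0.47, and over the 20 cytosolic and 16 mitochondrial enzymes it was -0.25 and -0.53. These are descriptions over genes from the same 4 libraries. Markers of neighbouring regions moved with it as well. Relative to experiment 1, the summed level in experiment 2 was 3.22 times for choroid plexus (10 of 10 higher), 1.69 times for thalamus (5 of 6 higher), 0.401 times for striatum (9 of 9 lower) and 0.176 times for cortex and hippocampus (6 of 6 lower). The part of length or of these regions in the differences of the synthetases was not tested.

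Several cytosolic synthetase genes are known targets of Atf4, the transcription factor of the amino acid response, which binds a composite element with the letters TGATGNAA. This element was searched on both strands (TTNCATCA on the other) in RefSeq promoters of GRCm38.p6, from 250 bases before to 50 after the start site. Of the 26 members with a promoter entry, 5 of 12 cytosolic and 0 of 14 mitochondrial ones held it, against 3.97% of all 32851 promoters and 4.51% of 27025 genes. The windows around it are shown because, among members with an entry, only cytosolic ones held the element, with the match in capitals.
Gars chr6:55037931-55038000 (plus strand, match starting at -30 from the start site): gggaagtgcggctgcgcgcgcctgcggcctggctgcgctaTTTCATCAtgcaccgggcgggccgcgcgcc
Tars chr15:11399659-11399713 (minus strand, -15): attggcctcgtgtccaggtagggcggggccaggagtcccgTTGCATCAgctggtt
Iars chr13:49682126-49682155 (plus strand, 8): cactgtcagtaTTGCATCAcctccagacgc
Yars chr4:129189895-129189924 (plus strand, 4): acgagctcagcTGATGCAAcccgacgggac
Aars chr8:111033690-111033777 (plus strand, -112): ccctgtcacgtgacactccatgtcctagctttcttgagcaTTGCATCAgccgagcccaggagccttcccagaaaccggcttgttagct
Aars chr8:111033840-111033869 (plus strand, 10): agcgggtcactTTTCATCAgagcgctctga
A match is a run of letters and was not measured as a bound site, and no match says only that these letters are not in the window. Of the genes that passed the test between experiments, Gars held the element, Farsb did not, and Cars and Pars2 had no entry. The median log2 difference between experiments was 0.09 for the 5 cytosolic members with the element and 0.12 for the 7 without it. By genotype the medians were -0.06 and -0.03.

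The comparison of genotypes asks whether lack of the T cell receptor beta chain went with other synthetase levels in the septum after restraint. No synthetase was called, as 0 of 36 passed in limma against 0% of the 13912 genes tested. At an unadjusted p of 0.05 the count was 0 of 36 synthetases against 0.309% of all genes, and limma with voom weights gave 0 by either measure. With the experiment as a replicate block, 0 of 36 passed against 0.0144% of all genes, and at an unadjusted p under 0.05 there was 1 (Mars2) against 5.64% of all genes. With 2 pools a genotype an exact permutation test cannot go below p = 0.333. Standard errors of the members' log2 differences ran from 0.12 to 0.23 without the block, and from 0.066 (Wars) to 0.153 (Vars2) with it. Differences of the size of a fit's errors were not detectable in that fit.

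The fitted differences, TCRb-/- minus WT, leaned in opposite ways in the compartments and were small. Of the cytosolic enzymes 5 were higher and 15 lower, with a median of -0.04 and a range of -0.15 to 0.11. Of the mitochondrial enzymes 12 were higher and 4 lower, with a median of 0.05 and a range of -0.37 to 0.25. The median over all genes was 0.00, with 50.3% above 0. Within experiment 1 the cytosolic median was -0.11 and within experiment 2 it was 0.02, while the mitochondrial medians were 0.05 and 0.04. The cytosolic median was 0.09 without TCRb-/- replicate 1 and 0.02 without WT replicate 2, so its sign rests on single libraries. Within both experiments 3 cytosolic enzymes were higher in TCRb-/- and 6 lower, and 8 mitochondrial enzymes were higher and 3 lower, against 27% and 24.5% of all genes. Neither median was tested.

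Both TCRb-/- libraries lay above both WT libraries for Qars and below for Eprs, Kars and Tars among cytosolic enzymes. In mitochondria they lay above for Cars2, Ears2, Fars2, Nars2, Tars2 and Wars2, and below for Hars2, Lars2 and Mars2. Over all genes 9.76% lay above and 8.04% below, 17.8% together. No member's difference exceeded 0.5 in size, against 1.2% of all genes.

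The members named next are those with the smallest unadjusted p in each compartment, 2 of each, in the fit without the replicate block. Eprs, which charges glutamate and proline in the cytosol (chromosome 1, 185363044 to 185428360), had 70.6 and 70.2 CPM in TCRb-/- and 79.3 and 77.7 CPM in WT. The groups did not overlap, and the log2 difference was -0.15 (SE 0.119, or 0.074 with the replicate block). Kars, which charges lysine in both compartments, had 108.7 and 105.0 CPM in TCRb-/- and 114.4 and 113.8 CPM in WT. Its difference was -0.09 (SE 0.117, or 0.070 with the replicate block). Both enzymes belong to the multi-synthetase complex, whose 8 enzymes had a median of -0.06.

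Mars2, the mitochondrial methionine enzyme (chromosome 1, 55237177 to 55248470), had 12.9 and 9.56 CPM in TCRb-/- and 15.8 and 13.7 CPM in WT. Each TCRb-/- library was below the WT library of its experiment, and the log2 difference was -0.37 (SE 0.206, or 0.126 with the replicate block). Wars2, the mitochondrial tryptophan enzyme (chromosome 3, 99141068 to 99239186), had 8.22 and 8.76 CPM in TCRb-/- and 7.48 and 6.53 CPM in WT. The TCRb-/- libraries were the higher, by 0.25 (SE 0.179, or 0.147 with the replicate block). Lars2, next in the mitochondrial set without the block, had 351 and 364 CPM in TCRb-/- and 409 and 385 CPM in WT. Its difference was -0.15 (SE 0.120, or 0.070 with the block). With the block, Lars2 and Fars2 came before Wars2, at unadjusted limma p values of 0.0621, 0.0935 and 0.132. Mars2, Wars2, Eprs and Kars had limma adjusted p values of 1.00 each, and of 0.848 for Eprs, 0.903 for Kars, 0.848 for Mars2 and 0.879 for Wars2 with the block, where Lars2 was at 0.848.

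**Figure D4:**
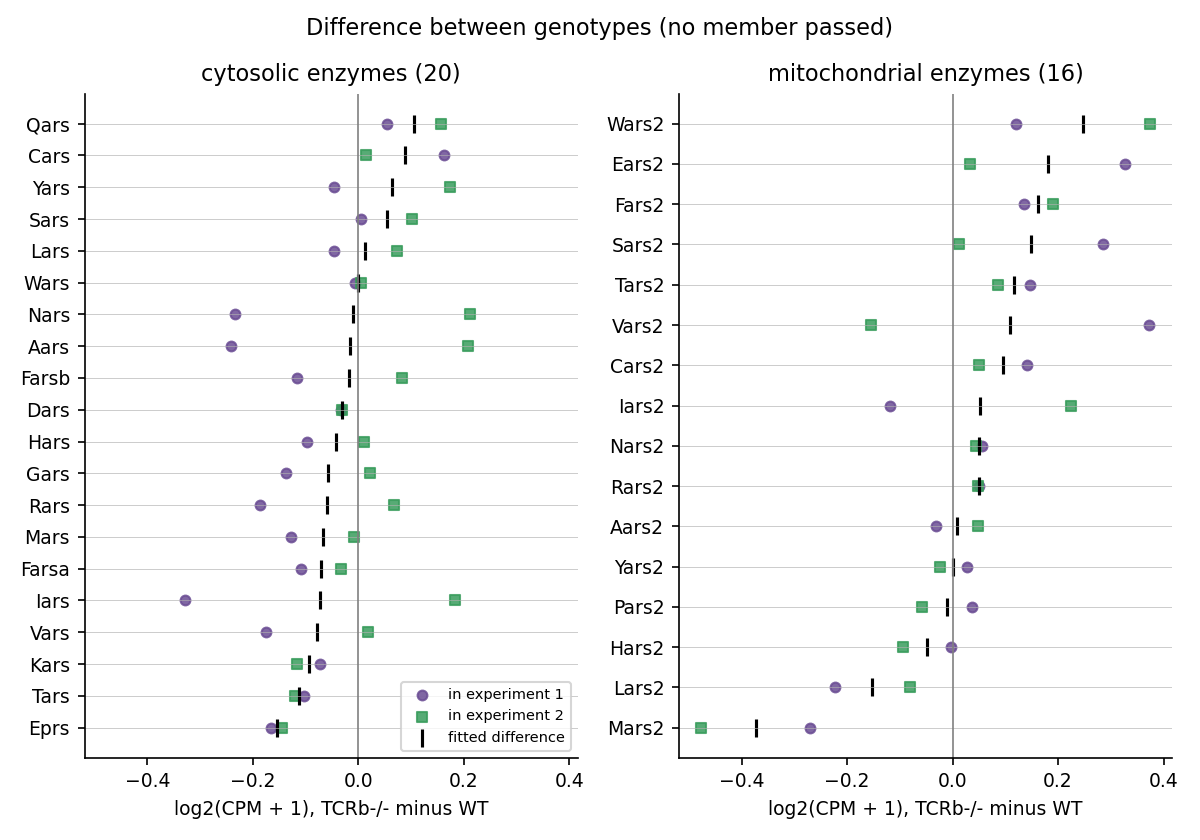
Log2 difference between TCRb-/- and WT in log2(CPM + 1) for each synthetase, as a point in experiment 1 and a point in experiment 2 (1 library against 1), with a bar at the fitted difference. No member passed the adjusted threshold, and the fitted differences run from -0.15 to 0.11 for cytosolic and from -0.37 to 0.25 for mitochondrial enzymes.

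Genes that act beside the synthetases were read in the same fits, and none was called by genotype in any list. At an unadjusted limma p under 0.05 there were 0 in every list without the block. With the block there were 3, all among the 27 genes of the amino acid response, while 5.64% of all genes passed the same threshold: Asns, the asparagine synthetase (158.7 and 187.2 CPM in TCRb-/- against 179.7 and 208.6 CPM in WT), Aldh18a1 of proline synthesis and Sesn2. Between experiments, 31 of 76 mitochondrial ribosomal protein genes rose (40.8%) and 0 fell, against 8.95% of all genes higher and 14.7% lower. Of the 76, 72 were fitted higher, against 46% of all genes, and the median log2 difference was 0.23. Mrps10 went from 64.9 and 61.9 CPM to 84.9 and 83.4 CPM in TCRb-/- and WT, a rise of 0.40 (limma adjusted p = 0.0091), and Mrpl41 rose by 0.41 (limma adjusted p = 0.0102). The median transcript of this list has 1328 bases, against 3188 over all genes. The mitochondrial synthetases had a median of -0.04, and the difference between the lists was not tested.

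Of 9 mitochondrial translation factors 1 rose (11.1%, against 8.95% of all genes), the elongation factor Tsfm, by 0.39 (limma adjusted p = 0.0121). The 4 genes that amidate or formylate charged mitochondrial tRNAs had 0 calls in limma and 0 at an unadjusted p under 0.05, with Qrsl1 at -0.02 and the formyltransferase Mtfmt at 0.06. Of 23 genes of tRNA processing and export 3 rose and 1 fell, 17.4% against 23.7% of all genes (8.95% higher and 14.7% lower). The tRNA ligase Rtcb rose by 0.61 and the splicing endonuclease subunit Tsen34 by 0.45 (limma adjusted p = 0.0065 and 0.0068), and the CCA-adding enzyme Trnt1 had a difference of 0.18 (limma adjusted p = 0.128). Of 3 proofreading genes 2 rose (66.7%, against 8.95% of all genes). The D-aminoacyl-tRNA deacylases Dtd1 and Dtd2, which remove wrongly charged amino acids, rose by 0.30 and 0.29 (limma adjusted p = 0.0149 and 0.0278). Aarsd1, the other gene of this list, had a difference of 0.12 (limma adjusted p = 0.649).

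The sensor of uncharged tRNA, the kinase Eif2ak4, was at 12.8 and 12.4 CPM in TCRb-/- and WT of experiment 1 and at 12.5 and 9.62 CPM in experiment 2 (log2 difference -0.18, limma adjusted p = 0.399). Impact, which inhibits the activation of this kinase, rose by 0.38 (limma adjusted p = 0.0302). Gcn1l1, its activator, had a log2 difference of -0.39 that missed the threshold (limma adjusted p = 0.0674), and the median of the 3 genes listed was -0.18. Of 27 genes of the amino acid response 3 rose and 2 fell between experiments, 18.5% against 23.7% of all genes, and with the replicate block 5 rose and 2 fell. Cebpb rose by 0.40 (limma adjusted p = 0.0299), and Trib3 fell by 0.83 from a low level, from 2.64 and 3.13 CPM to 1.00 and 1.39 CPM (limma adjusted p = 0.0209). Atf4 itself had 92.7 and 100.3 CPM in experiment 1 and 104.7 and 96.4 CPM in experiment 2, a difference of 0.06 (limma adjusted p = 0.608). Asns had a difference of 0.23 (limma adjusted p = 0.0902, or 0.0429 with the block), and Sesn2 one of 0.33 (limma adjusted p = 0.0806, or 0.0391 with the block).

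**Figure D5:**
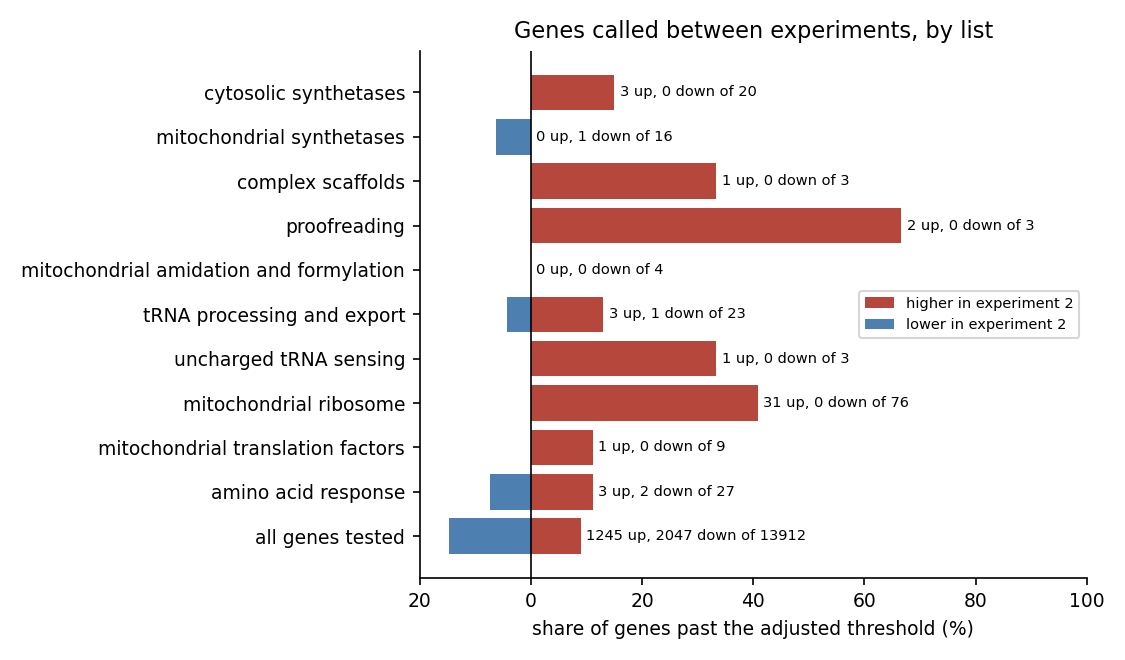
Share of genes in each list that passed the adjusted threshold between experiments (percent of the genes tested, genes lower in experiment 2 to the left of 0 and genes higher to the right), beside the share over all genes tested. The mitochondrial ribosome list has 40.8% called and the cytosolic and mitochondrial synthetases 15% and 6.25%, against 23.7% of all genes.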

How the data were processed

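The deposited files held log2 values per gene in each of the 4 libraries, made by the authors from reads scaled to the library total. The submitters' processing notes name HISAT2 2.1.0, SAMtools 1.3, HTSeq 0.9.1, R 4.0.5, limma 3.46.0 and the build mm10, and the strand setting is not given in the sources used here. Each value was a whole number of reads plus 0.5, scaled by the library total plus 1, so reads were recovered (100% whole within 0.001 reads) and turned to CPM. The rows listed held 97.6% to 97.8% of each library's reads, and 17 spike-in rows were left out.

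Tests used log2(CPM + 1) of 13912 genes, those whose mean reached 1 CPM, so the differences of low genes are understated. They were fitted in limma 3.58.1 (R 4.3.3) with an intensity trend and Benjamini-Hochberg adjustment over all these genes, by genotype and, in a separate fit, by experiment. Nothing says that the pools came from independent cohorts, so p-values measure the spread between these pools only. Of the fits, only that by genotype without the block was tested on simulated data, which held no difference between experiments. Replicate numbers match the experiment that the labels give as batch, and deviations of same-numbered libraries from their genotype means correlated at r = 0.719 over genes, so the replicate block is a paired fit. No count model was run on the recovered reads, which entered limma as log2(CPM + 1) or, as an alternative, with voom weights.

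Lengths are those of the longest protein-coding transcript in the GENCODE annotation of GRCm38. Named were the 3 highest and 3 lowest members per compartment, and the 2 smallest p by genotype in the fit without the block. Also named were up to 4 called and the nearest to 0 by experiment, and the 2 highest and 2 lowest pair ratios. For each other list the genes named were the 2 smallest p and preset genes. From the other lists some genes that this rule names are left unprinted, and Farsa, Nars, Aars, Iars and genes whose libraries did not overlap were named after their values were seen. The members and lists were chosen with earlier results of these data known. Other settings tried were pseudocounts of 0.1 and 5 CPM, no filter, a filter at 10 CPM, other scalings, voom weights, no trend, the block and leaving out each library.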

Additional observations from a re-analysis of the deposited data

Results flagged for a closer look

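The median difference of the cytosolic enzymes between genotypes (TCRb-/- minus WT) had opposite signs in the experiments, at -0.11 in experiment 1 and 0.02 in experiment 2, which differ by -0.13 on the log2 scale. Lars2 had opposite signs by genotype in the comparison of experiment 2 with experiment 1, at 0.05 in TCRb-/- and -0.09 in WT, which differ by 0.14. Each value comes from 1 library against 1, and neither difference was tested.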

How the results depend on the processing

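No synthetase was called by genotype under any setting tried. With the replicate block 2 genes of all those tested were called by genotype, also with quantile normalization, median-of-ratios scaling or voom weights added to the block, combinations chosen after seeing the data. On leaving out 1 library this count ran from 0 to 47 (47 without TCRb-/- replicate 1). The block changed no call of a synthetase, and in the amino acid response it added calls by experiment, from 3 to 5 higher. By experiment, 629 genes passed with no intensity trend, and 1406 to 3390 on leaving out 1 library (1406, 1823 and 1637 without TCRb-/- replicate 1, TCRb-/- replicate 2 and WT replicate 1). Cytosolic enzymes called numbered 5 after quantile normalization, with or without the block, 0 with no trend, and 1 to 3 on leaving out 1 library (1 without TCRb-/- replicate 2). Mitochondrial enzymes called numbered 0 after quantile normalization and 0 with no trend, and 0 to 2 on leaving out 1 library (0 without TCRb-/- replicate 1, TCRb-/- replicate 2 or WT replicate 1, and 2, Mars2 and Pars2, without WT replicate 2). With the block and quantile normalization the call was Sars2, higher, in place of Pars2.

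The median log2 difference of the mitochondrial enzymes by experiment was 0.026 after quantile normalization, with or without the block, and ran from -0.10 to 0.0058 on leaving out 1 library, and that of the cytosolic enzymes from 0.097 to 0.18. By genotype, the medians ran from -0.15 to 0.086 for cytosolic and from 0.029 to 0.090 for mitochondrial enzymes. The cytosolic minus mitochondrial level was 1.69 with no length correction, 1.72 without Gars and Kars, and 1.84 to 1.97 on leaving out 1 library. Eprs by experiment turned to 0.014 under median-of-ratios scaling and quantile normalization, with or without the block, and ran from -0.10 to 0.065 on leaving out 1 library. Lars2 by experiment turned to 0.014 under median-of-ratios scaling, with or without the block, and ran from -0.13 to 0.093. On leaving out 1 library the differences by experiment ran from 0.34 to 0.46 for Farsb, 0.26 to 0.42 for Cars, 0.20 to 0.34 for Gars and -0.44 to -0.38 for Pars2, and by genotype from -0.17 to -0.14 for Eprs, -0.12 to -0.069 for Kars, -0.57 to -0.18 for Mars2 and 0.16 to 0.33 for Wars2. Adjusted p in limma over the alternatives ran from 0.0043 to 0.0593 for Farsb, 0.0141 to 0.0985 for Cars, 0.0210 to 0.106 for Gars and 0.0281 to 0.124 for Pars2. Wars2 has no value under the 10 CPM filter, since its mean is lower. A fit that leaves out a library assumes that the lone sample varies like the other group. The cause of these shifts was not tested, and 2 pools a group set the precision.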
